A study of Homo sapiens with 18 samples.

Results

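The genes that copy DNA in S phase were followed through the MCF10 model of breast cancer progression, with and without CRISPR directed at METTL3, the catalytic subunit of the main m6A RNA methyltransferase. The 41 genes were chosen by symbol from a list of origin licensing factors, helicase subunits, polymerases and their partners, and all 41 were found among the 35933 genes with values. MCF10A is a spontaneously immortalized, non-tumorigenic human breast epithelial line, MCF10AT1 is its derivative carrying mutant HRAS, and MCF10CA1h is a malignant derivative of MCF10AT1. Each line was represented by a Control Negative CRISPR line and by a METTL3 knockdown line, with 3 replicates named a, b and c in each of the 6 groups, or 18 libraries. Both kinds of CRISPR line had been transfected with a plasmid expressing Cas9, an sgRNA and mCherry, sorted for mCherry and grown from single cells, and the targeting sgRNA was directed at exon 1 of METTL3. Each group was therefore 1 clone of 1 line, and a difference between clones cannot be told apart from the effect of METTL3. The labels do not say whether replicates were separate cultures, so p-values measure the spread between these libraries only.

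Replication starts with licensing, in which the origin recognition complex (ORC), CDC6 and CDT1 load rings of the MCM2 to MCM7 helicase onto origins in G1. At the start of S phase CDC45 and the GINS complex join MCM to form the active helicase, with MCM10 as an activating factor, and RPA covers the single strands that are exposed. Polymerase alpha with primase lays down primers, the RFC complex loads the sliding clamp PCNA, polymerases delta and epsilon extend the strands, and FEN1 and LIG1 process and seal Okazaki fragments. Ribonucleotide reductase (RRM1 and RRM2), thymidylate synthase (TYMS) and thymidine kinase (TK1) supply nucleotides, and UNG removes uracil from DNA. Many of these genes are textbook targets of the E2F family, of which E2F1 belongs to the 41, so their RNA is high in proliferating cells and low in resting cells.

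Promoters of 5 of the genes are shown because their genes moved in different ways below: MCM6 and MCM10 as helicase genes, E2F1 as the transcription factor, PCNA as the clamp gene with the largest METTL3 knockdown change in MCF10AT1, and RFC1 as the gene that ran opposite to most others. Each run is the 200 bases before a RefSeq start site in hg38, written 5′ to 3′ on the strand of the gene, and capitals mark the letters TTTCCCGC, TTTGGCGC, TTTCGCGC or TTTGCCGC (core letters of E2F sites) and CCAAT, all searched on both strands.
MCM6, chr2:135876444-135876643, minus strand: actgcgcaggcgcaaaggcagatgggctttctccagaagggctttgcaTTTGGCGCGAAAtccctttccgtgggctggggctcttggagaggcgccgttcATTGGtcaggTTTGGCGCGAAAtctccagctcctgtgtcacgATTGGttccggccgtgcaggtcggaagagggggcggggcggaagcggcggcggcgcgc
E2F1, chr20:33686386-33686585, minus strand: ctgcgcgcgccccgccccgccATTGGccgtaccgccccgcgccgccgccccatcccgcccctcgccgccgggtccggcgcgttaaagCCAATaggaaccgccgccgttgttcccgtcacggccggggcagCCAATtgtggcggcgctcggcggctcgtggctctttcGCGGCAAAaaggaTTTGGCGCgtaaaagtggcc
PCNA, chr20:5126623-5126822, minus strand: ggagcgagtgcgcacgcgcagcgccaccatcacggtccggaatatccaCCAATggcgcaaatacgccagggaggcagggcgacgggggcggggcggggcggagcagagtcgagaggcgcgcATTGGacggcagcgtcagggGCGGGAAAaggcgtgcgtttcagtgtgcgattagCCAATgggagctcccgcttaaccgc
MCM10, chr10:13161358-13161557, plus strand: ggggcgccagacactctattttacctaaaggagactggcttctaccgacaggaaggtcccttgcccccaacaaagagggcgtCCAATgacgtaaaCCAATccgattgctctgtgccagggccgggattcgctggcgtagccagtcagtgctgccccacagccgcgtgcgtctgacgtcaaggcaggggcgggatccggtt
RFC1, chr4:39366363-39366562, minus strand: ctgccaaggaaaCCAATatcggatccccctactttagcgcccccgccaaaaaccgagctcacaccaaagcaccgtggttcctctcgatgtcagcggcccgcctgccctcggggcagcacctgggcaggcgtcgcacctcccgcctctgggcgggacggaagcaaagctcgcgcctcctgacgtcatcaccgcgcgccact
The MCM6 stretch held 4 matches of the E2F letters, which lie as 2 overlapping pairs because each TTTGGCGC runs into TTTCGCGC read on the other strand, and the E2F1 stretch held 2. PCNA, for which the table gives 2 starts, held 1 match in the stretch shown, and the MCM10 and RFC1 stretches held CCAAT but none of the E2F letters. Over windows of 300 bases (250 before the start and 50 after it), 19 of 44 promoters of the genes (43.2%) held the E2F letters, compared with 1164 of 35116 promoters in the RefSeq table (3.31%). CCAAT was found in 29 of the 44 (65.9%) and in 34.6% of all promoters. The table had entries for 35 of the 41 genes, and a match describes the letters of these windows only.

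The deposited values were counts normalized by the authors with DESeq2, which summed to between 21347352 and 31681834 per library. The number of reads behind a value is unknown, so counting error is not given, and since the values are not per length no gene is compared with another in level. METTL3 in the METTL3 knockdown libraries held 128% of the negative CRISPR mean in MCF10A, 88.5% in MCF10AT1 and 70.8% in MCF10CA1h (exact two-sided permutation p = 0.3, 0.3 and 0.1, where 0.1 is the smallest p for 3 libraries against 3). A lower level of the targeted RNA was therefore not seen in MCF10A and not established in MCF10AT1, and groups are named here by their labels. RNA does not measure the protein. The paper reported less METTL3 protein by Western blot in each line, only moderately so in MCF10CA1h, and a lesser decrease of METTL3 mRNA by real-time PCR. It also reported lower m6A, significant in MCF10AT1 and MCF10CA1h but not in MCF10A. In the limma fit METTL3 was lower in MCF10CA1h only (a change of -0.49 on the log2 scale, adjusted p = 0.0234). The 15 epithelial markers summed to between 134584 and 462577 normalized counts in 15 libraries and to only 28787, 50854 and 58692 in the MCF10AT1 METTL3 knockdown libraries, where 11 of the 15 were lower by limma. Fibroblast and mesenchymal markers, 15 genes, summed to between 119716 and 208671 in those same 3 libraries and to between 4130 and 52529 in the rest. Endothelial markers (8 genes) summed to at most 878 and immune cell markers (7 genes in the table) to at most 2979 in any library. Whether these shifts bear on the replication genes was not tested.

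On average over the 41 genes, replication RNA stood higher at each stage of the model, from MCF10A to MCF10AT1 to MCF10CA1h. This average of the log2 of the normalized count plus 1 was 8.25 ± 0.84 (SD, n = 3) in the MCF10A negative CRISPR line, 9.43 ± 0.37 in MCF10AT1 and 10.68 ± 0.02 in MCF10CA1h. The METTL3 knockdown lines had means of 8.68 ± 0.54, 9.35 ± 0.85 and 10.35 ± 0.09 (SD, n = 3 each). For 36 of the 41 genes the negative CRISPR means stood in the order MCF10A, MCF10AT1, MCF10CA1h, and 27 stood in this order in the METTL3 knockdown means, compared with 20.1% and 13.9% of 15897 genes. In 19 genes all 6 MCF10CA1h libraries lay above all other 12 libraries, as they did for 4.74% of all genes. These 19 included all 4 licensing factors, MCM2, MCM3, MCM4, MCM5 and MCM10, both RRM1 and RRM2, and RPA1. In bulk RNA, fewer cells in S phase and less RNA per cell cannot be told apart.

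**Figure D1:**
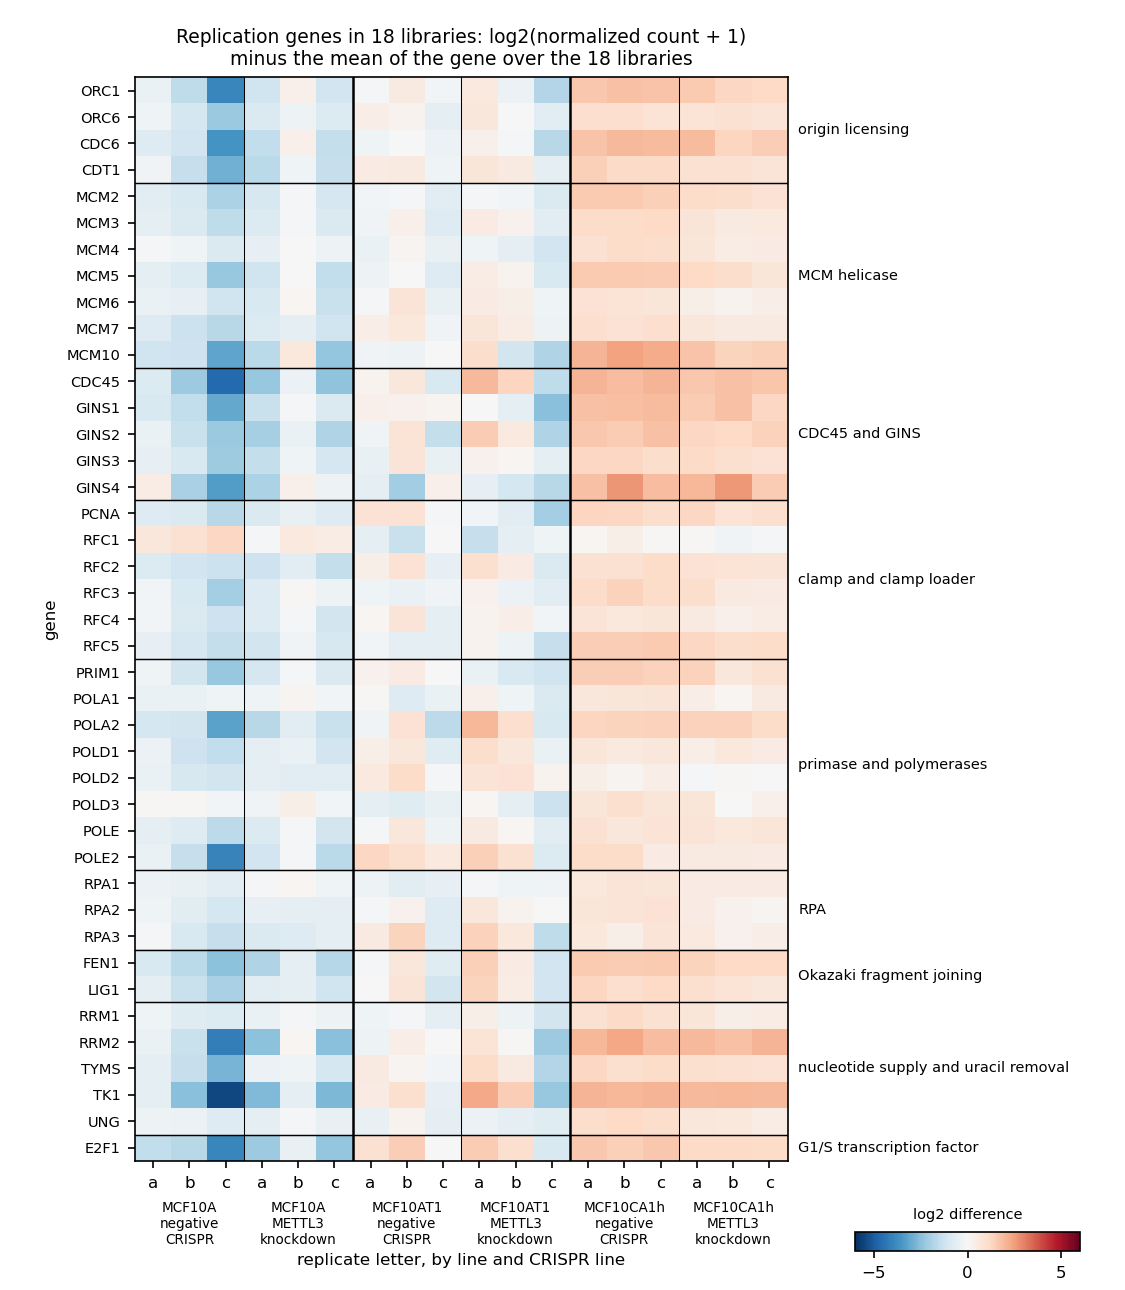
Each row is 1 of the 41 replication genes grouped by role and each column 1 of the 18 libraries, ordered by line, CRISPR line and replicate letter, and colour shows log2(normalized count + 1) minus the mean of that gene over the 18 libraries. MCF10CA1h libraries are red in most rows, MCF10A negative CRISPR replicate c is the bluest column, and RFC1 runs the opposite way.

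The replicates of MCF10A and of the MCF10AT1 METTL3 knockdown line differed among themselves as a block. In the MCF10A negative CRISPR line the average over the genes was 9.0 in replicate a, 8.42 in b and 7.34 in c on the log2 scale, and replicate a was the highest for 39 of the 41 genes and replicate c the lowest for 39. Over all 15897 genes with a mean of at least 10, replicate a was highest for 41.5% and replicate c lowest for 33.0%. A far larger share of the replication genes than of all genes thus had the same highest and lowest replicate. In the MCF10A METTL3 knockdown line replicate b was highest for 38 of the 41 genes, with averages of 8.37, 9.30 and 8.37 in a, b and c. The MCF10AT1 METTL3 knockdown replicates averaged 10.06, 9.57 and 8.41, replicate a was highest for 38 genes and replicate c lowest for 39. By contrast, the 3 MCF10CA1h negative CRISPR replicates averaged 10.67, 10.70 and 10.66. No replicate there was highest for more than 17 genes. MCF10CA1h METTL3 knockdown replicate a (70.7% of the genes, beside 33% of all genes) and MCF10AT1 negative CRISPR replicate b (70.7% beside 38.9%) were highest for 29 genes each. Over all genes the MCF10AT1 negative CRISPR replicates had the widest spread of any group, with a median SD of 0.55 on the log2 scale (0.50 for the 41 genes). Replicates b and c of that group had a Pearson r of 0.845 on the log2 scale, the lowest of any pair within a group. Genes above 0 numbered 20121 in b and 26330 in c. Every comparison with MCF10AT1 uses these controls.

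The genes differed in how far they moved between replicates. TK1, which is needed mainly in S phase, had normalized counts of 449, 111 and 13.4 in MCF10A negative CRISPR replicates a, b and c, a 33.6-fold range. POLE2, a subunit of polymerase epsilon, ranged 16.1-fold there, from 48.4 in a to 3.01 in c. POLA1, the catalytic subunit of polymerase alpha, had 285, 277 and 314, a range of only 1.13-fold, although it belongs to the same list. The median range over the 41 genes was 2.67-fold in that group, and 14 genes varied by more than 4-fold. In the MCF10AT1 METTL3 knockdown line TK1 again had the widest range, with 3109, 1820 and 134 (23.3-fold), followed by CDC45 (11.2-fold). The median range was 1.14-fold in MCF10CA1h negative CRISPR, where TK1 had 2666, 2533 and 2664. No gene there reached 2-fold. A comparison in MCF10CA1h therefore rests on far less replicate spread than one in MCF10A.

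Mitosis genes, a list of 31 such as MKI67 and BIRC5, varied in the same direction as the replication genes between the MCF10A replicates and between the MCF10AT1 METTL3 knockdown replicates. Their log2 average was 8.83, 6.70 and 5.00 in MCF10A negative CRISPR replicates a, b and c and 7.56, 8.62 and 7.88 in the METTL3 knockdown replicates. In MCF10AT1 METTL3 knockdown it was 10.63, 10.02 and 7.72. The MCF10AT1 negative CRISPR replicates did not share this order, since the mitosis average was highest in a (9.68, 9.24 and 8.85) and the replication average in b (9.50, 9.75 and 9.03). Leaving out MCF10A negative CRISPR replicate c moved the median METTL3 knockdown change of the replication genes in MCF10A from 0.38 to -0.02, so the middle of that distribution rests on 1 library.

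**Figure D2:**
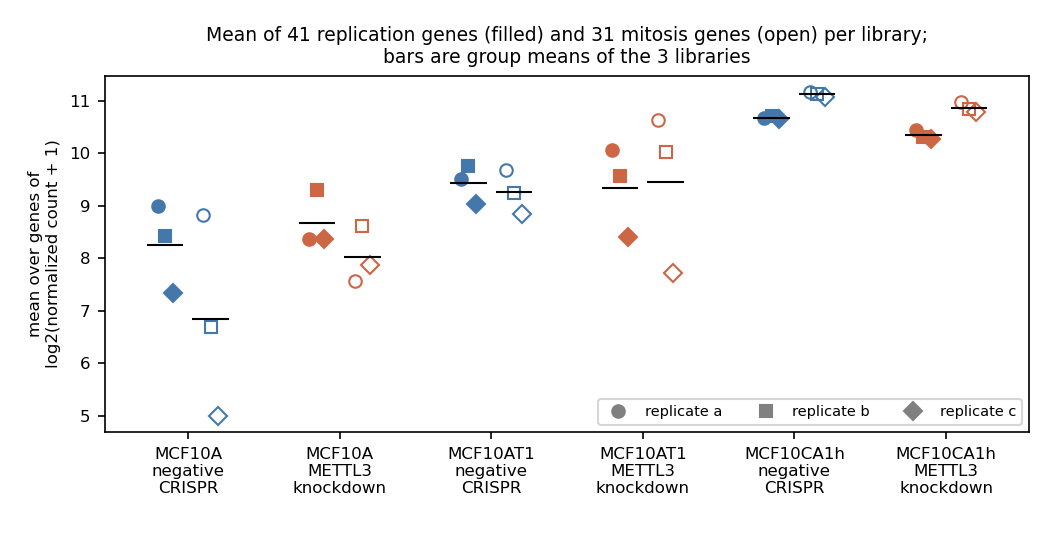
Filled symbols give the mean over the 41 replication genes and open symbols that over 31 mitosis genes of log2(normalized count + 1) in each library, with replicate letters as shapes, negative CRISPR in blue, METTL3 knockdown in orange and bars for the mean of 3 libraries. The MCF10CA1h libraries lie close together and above the others, while the MCF10A negative CRISPR replicates spread from 7.34 to 9.0 for the replication genes.

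The negative CRISPR lines were compared to ask how replication genes differ between the stages of the model. Each stage was 1 clone, so a difference between stages cannot be told apart from a difference between clones. The 3 comparisons share their libraries (each control group enters 2 of them) and were made by limma in 1 fit of the 9 negative CRISPR libraries. Between MCF10A and MCF10AT1, 15 of the 41 genes were higher in MCF10AT1 at an adjusted p under 0.05 and 1 was lower. Over all 15652 genes tested, 28.1% differed, 13.3% higher and 14.7% lower. Between MCF10A and MCF10CA1h, 39 of the 41 were higher in MCF10CA1h and none lower, where 37.8% of all genes differed, 19.0% higher and 18.8% lower. Between MCF10AT1 and MCF10CA1h, 18 were higher and none lower, with 21.8% of all genes differing, 11.0% higher and 10.8% lower. The median log2 fold change (log2FC) of the 41 genes was 1.16, 2.36 and 1.23 in the 3 comparisons, and that of all genes tested was -0.01, -0.06 and 0.05. Counting both directions, the first comparison called 16 genes, 28 without MCF10A replicate a, 6 without b and 8 without c, and 6, 8 and 30 without MCF10AT1 replicates a, b and c. The third called 11 without MCF10AT1 replicate a and 11, 10 and 9 without MCF10CA1h replicates a, b and c, while the second stayed between 37 and 41.

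All 4 licensing factors were higher in MCF10CA1h than in MCF10A. CDC6 (chr17:40287879-40304657 in hg38, GENCODE), which helps load the MCM ring, had 326, 255 and 46 normalized counts in MCF10A negative CRISPR replicates, 464, 549.7 and 433 in MCF10AT1, and 1846, 2127 and 2093 in MCF10CA1h. The 3 lines did not overlap, and MCF10CA1h exceeded MCF10A by 12.8-fold (log2FC 3.68 with a standard error, SE, of 0.60, adjusted p = 0.00175 by limma) and MCF10AT1 by 4.2-fold (adjusted p = 0.0347). CDT1, its partner in licensing, had 506, 229 and 79.6 in MCF10A and 829, 857 and 499 in MCF10AT1. The highest MCF10A library reached above the lowest MCF10AT1 library, although the difference passed the test (log2FC 1.75, SE 0.55, adjusted p = 0.0413). This call and that of CDC6 between MCF10AT1 and MCF10CA1h were each lost in 4 of 6 fits with 1 library left out, and CDT1 gave 1.05 without MCF10A replicate c. CDT1 had 1595, 1302 and 1303 in MCF10CA1h. ORC1 and ORC6, subunits of the origin recognition complex, were called only between MCF10A and MCF10CA1h, with log2 fold changes of 3.64 and 2.13.

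All 7 helicase genes were higher in MCF10CA1h than in MCF10A, 2 of 7 differed between MCF10A and MCF10AT1, and 5 of 7 between MCF10AT1 and MCF10CA1h. MCM10 (chr10:13161558-13211110) had 88.2, 84.2 and 21.6 in MCF10A, 174, 163 and 203 in MCF10AT1 and 824, 1090 and 957 in MCF10CA1h. It rose at both steps, by 1.70 on the log2 scale (SE 0.47, adjusted p = 0.0279) and then by 2.40 (SE 0.47, adjusted p = 0.00723), or 17.1-fold in all, although the first call was lost without MCF10AT1 replicate a or b. MCM2 (chr3:127598410-127622436) had 875, 729 and 362, then 1207, 1250 and 858, then 4050, 4001 and 3734. Only its second step passed the test (log2FC 1.85, SE 0.31, adjusted p = 0.0036), and the first step gave 0.83 (adjusted p = 0.0715). MCM5, another ring subunit, had 907, 727 and 265, then 1061, 1310 and 753, then 3822, 3834 and 3726, so that MCF10A and MCF10AT1 overlapped while MCF10CA1h stood apart (second step 1.90, SE 0.41, adjusted p = 0.0111). MCM7 went the other way about, with a first step of 1.55 that passed (adjusted p = 0.00555) and a second of 0.68 that did not (adjusted p = 0.108).

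All 5 genes of CDC45 and GINS were higher in MCF10CA1h than in MCF10A, from 2.36 on the log2 scale for GINS3 to 4.52 for CDC45. CDC45 had 218, 82.2 and 14.1 in MCF10A, 444, 605 and 199.7 in MCF10AT1 and 1549, 1386 and 1548 in MCF10CA1h. The 2 lower lines overlapped, but both comparisons with MCF10A passed the test, at log2 fold changes of 2.54 (SE 0.81, adjusted p = 0.043) and 4.52 (SE 0.81, adjusted p = 0.00283). GINS1 had 116, 76.3 and 24.9, then 263, 256 and 241, then 740.1, 765 and 813, with no overlap between lines. It was 4.12-fold higher in MCF10AT1 than in MCF10A (adjusted p = 0.0136) and 3.04-fold higher again in MCF10CA1h (adjusted p = 0.0348). GINS2 had 1229, 1170 and 1357 in MCF10CA1h against 343, 703 and 150.1 in MCF10AT1 (log2FC 1.91, SE 0.56, adjusted p = 0.0382). GINS4 had 141, 26.2 and 9.2 in MCF10A and 69.3, 23.8 and 127 in MCF10AT1, which overlapped, and 354, 657 and 374 in MCF10CA1h. Its rise from MCF10AT1 to MCF10CA1h (2.87, SE 0.89, adjusted p = 0.0456) was lost in 5 of the 6 fits that left out a library of these lines, as were those of GINS1 and GINS2 over the same step. CDC45 lost its call between MCF10A and MCF10AT1 in 4 of 6 fits and gave 1.49 without MCF10A replicate c.

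The clamp loader held the exception. RFC1 (chr4:39287456-39366375), the large subunit of the loader, had 1586, 1870 and 2351 in MCF10A, 676, 394 and 999 in MCF10AT1 and 1075, 1259 and 1027 in MCF10CA1h. It was lower in MCF10AT1 than in MCF10A, at 33.7% (log2FC -1.57, SE 0.32, adjusted p = 0.00883), and was the only 1 of the 41 genes called lower in any comparison of the negative CRISPR lines. In MCF10CA1h it stood at 58.4% of MCF10A with groups that did not overlap (adjusted p = 0.0795). Within MCF10A, the library that was lowest for 39 of the genes, replicate c, was the highest for RFC1. The small subunit RFC5 had 321, 227 and 169, then 408, 302 and 312, then 1287, 1253 and 1374, and so rose at the second step (1.95, SE 0.26, adjusted p = 0.00109) without a called first step (0.54, adjusted p = 0.131). PCNA (chr20:5114953-5126626) had 1325, 1255 and 723, then 4123, 4142 and 2177, then 5529, 5355 and 4754, with the called step between MCF10A and MCF10AT1 (1.65, SE 0.31, adjusted p = 0.0066) and a further 0.64 that was not called (adjusted p = 0.164).

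Among the polymerases all 8 genes were higher in MCF10CA1h than in MCF10A. POLE2 had 48.4, 24.1 and 3.01 in MCF10A, 152, 127 and 98.6 in MCF10AT1 and 139, 141 and 91.9 in MCF10CA1h. It rose 7.31-fold from MCF10A to MCF10AT1 (adjusted p = 0.0238, lost without MCF10A replicate b or MCF10AT1 replicate a or b) and gave -0.03 on the log2 scale from there to MCF10CA1h (SE 0.76, adjusted p = 0.986). POLD2, an accessory subunit of polymerase delta, likewise had its called step at MCF10AT1 (1.36, adjusted p = 0.0122) and gave -0.22 afterwards. POLA1 and POLD3 showed the reverse, with first steps of -0.01 and -0.57 that were not called and second steps of 1.07 and 1.38 that were. The RPA genes, which bind single-stranded DNA, had the smallest median change of any role with more than 1 gene between MCF10A and MCF10CA1h (1.39).

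TK1 and E2F1 gave the largest changes between MCF10A and MCF10AT1, and TK1 also the largest between MCF10A and MCF10CA1h. TK1 (chr17:78174091-78187233) had 449, 111 and 13.4 in MCF10A, 896, 1273 and 454 in MCF10AT1 and 2666, 2533 and 2664 in MCF10CA1h. The lines did not overlap, and TK1 was 8.95-fold higher in MCF10AT1 (log2FC 3.16, SE 0.98, adjusted p = 0.0403) and 29.2-fold higher in MCF10CA1h (4.87, SE 0.98, adjusted p = 0.00491) than in MCF10A. Without MCF10A replicate c these log2 fold changes were 1.84 (adjusted p = 0.0783) and 3.54 (adjusted p = 0.00468), and the first call was also lost without MCF10A replicate b or MCF10AT1 replicate a or b. RRM2, the subunit of ribonucleotide reductase that varies with the cell cycle, had 1090, 569.9 and 80.9, then 1174, 1857 and 1419, then 5671, 7091 and 5241 (16.1-fold between MCF10A and MCF10CA1h, adjusted p = 0.00353). TYMS had 734, 428 and 161 in MCF10A, 1606, 1240 and 1011 in MCF10AT1 and 2619, 2171 and 2406 in MCF10CA1h, and its called step was the first (1.77, SE 0.46, adjusted p = 0.0218, lost without MCF10A replicate b or MCF10AT1 replicate a). E2F1 (chr20:33675477-33686385) had 159, 139 and 28, then 828, 1238 and 431, then 1364, 1200 and 1362. It rose by 3.14 from MCF10A to MCF10AT1 (SE 0.61, adjusted p = 0.0076), and the further 0.78 to MCF10CA1h, with overlapping groups, did not pass the test (adjusted p = 0.387).

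The METTL3 knockdown lines were next compared with the negative CRISPR line of the same parent, each line in its own limma fit. These comparisons use the same control libraries as the comparisons between lines. In MCF10A the epithelial marker sums were higher with METTL3 knockdown (290759 to 337834, against 214003 to 243346). Of the 14 epithelial markers tested, however, 6 had estimates above 0 and 8 below, and only 1 was called, higher. Of 7 mesenchymal markers tested, 2 had estimates above 0 and 5 below, and none was called. None of the 41 replication genes was called and 2 reached an unadjusted p under 0.05. Over all 15416 genes tested, 2.65% were called and 18.4% reached an unadjusted p under 0.05. The estimates were above 0 for 37 of the 41 genes, with a median log2FC of 0.38 beside -0.00 for all genes. Groups did not overlap for 2 genes (23.9% of all genes tested). RFC1 had 945, 1504 and 1333 in the METTL3 knockdown libraries, all below the 1586, 1870 and 2351 of the controls (log2FC -0.63, SE 0.22, adjusted p = 0.186). With the replicate letter as a block RFC1 passed the threshold (adjusted p = 0.0497) and was the only 1 of the 41 genes to do so, where 7.60% of all genes were called. RPA1 had 1542, 1842 and 1414, all above the 1340, 1255 and 1074 of the controls (0.38, SE 0.16, adjusted p = 0.264). TYMS had 887, 946 and 541 against 734, 428 and 161, with overlapping groups (1.05, SE 0.50, adjusted p = 0.316). E2F1 shows how the spread within groups covered most differences, with 97, 329 and 88.1 in the METTL3 knockdown libraries against 159, 139 and 28 in the controls (0.72, adjusted p = 0.662).

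In MCF10AT1 the 41 genes centred on the level of the controls, with PCNA, GINS1 and PRIM1 lowest. None was called, 2 reached an unadjusted p under 0.05, and the median log2FC was -0.02, beside 13.0% of 16050 genes called and 27.6% at an unadjusted p under 0.05. PCNA, the sliding clamp, had 4123, 4142 and 2177 in the negative CRISPR libraries and 2081, 1496 and 562 in the METTL3 knockdown libraries. Every METTL3 knockdown library was below every control, at 36.1% of the control level on the fitted scale (log2FC -1.47, SE 0.50, adjusted p = 0.0973). With the replicate letter as a block PCNA was called (adjusted p = 0.0017), as it was in the joint fit of 18 libraries (adjusted p = 0.00678). PRIM1 (chr12:56730438-56752374), the catalytic subunit of primase, had 255, 301 and 213 against 163, 110.3 and 91.5 (-1.10, SE 0.37, adjusted p = 0.0892), and it too passed under the block (adjusted p = 0.0468) and in the joint fit (adjusted p = 0.0453). These were the only 2 of the 41 called by either, beside 24.5% of all genes under the block and 32.4% in the joint fit. GINS1 had 263, 256 and 241 against 219.9, 147 and 37.5, again without overlap, and did not pass the threshold (-1.24, SE 0.62, adjusted p = 0.236). Without METTL3 knockdown replicate c, the library lowest for 39 of the 41 genes, the estimates were -0.92 for PCNA and -0.49 for GINS1. Groups did not overlap for 4 genes in all, these 3 and RPA1 (0.28), compared with 32.8% of all genes tested.

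**Figure D3:**
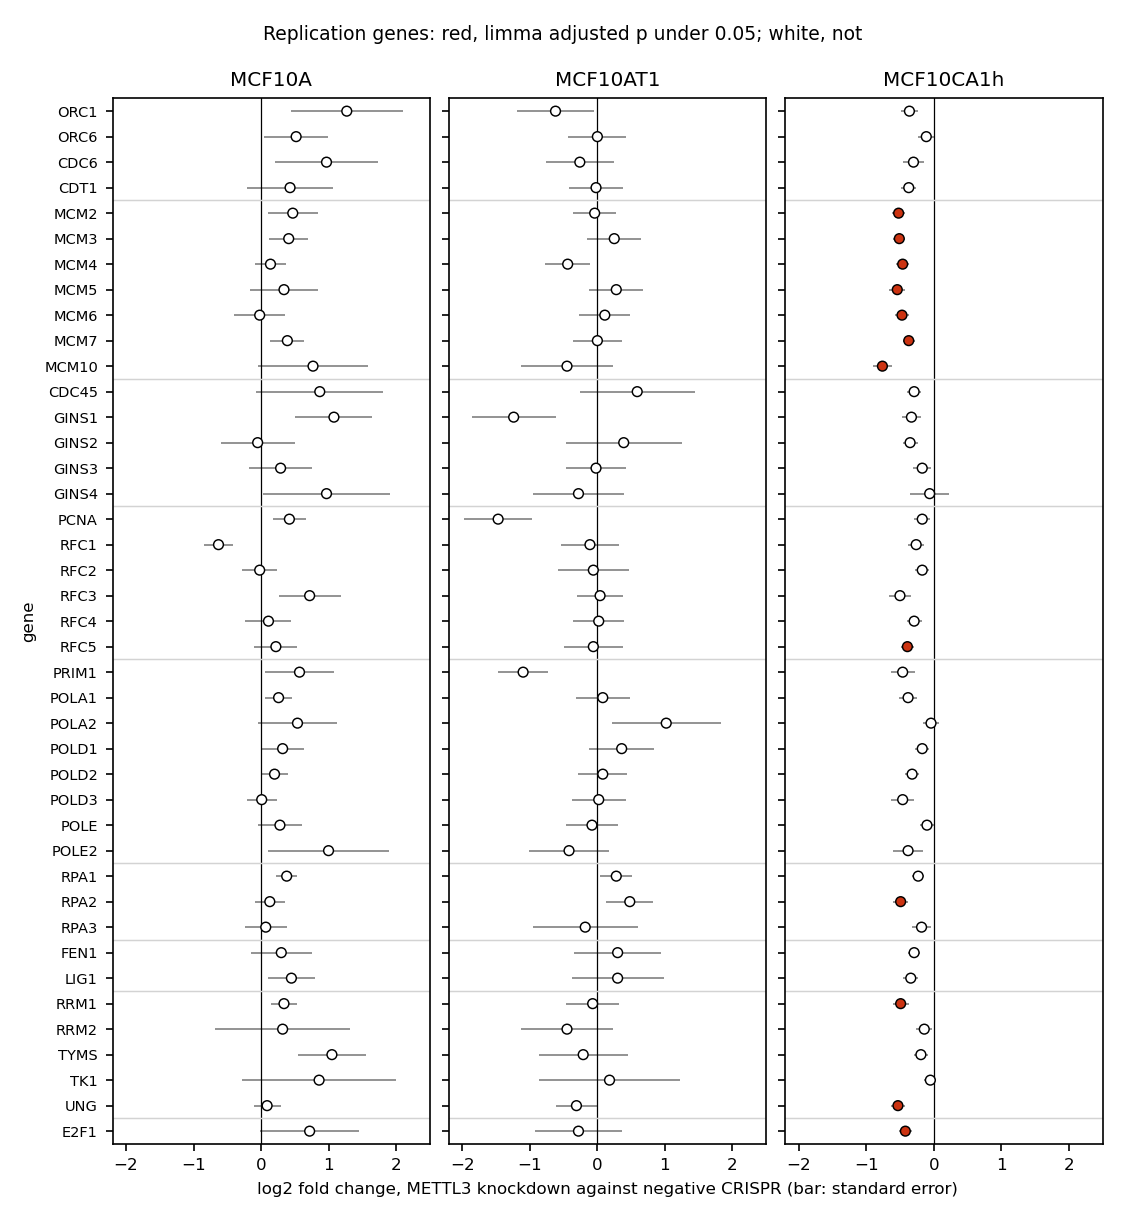
Points give the log2FC of each of the 41 genes between METTL3 knockdown and negative CRISPR in MCF10A, MCF10AT1 and MCF10CA1h, with bars for the SE from limma, and red marks an adjusted p under 0.05. No point is red in MCF10A or MCF10AT1, 12 are red in MCF10CA1h, and PCNA, GINS1 and PRIM1 lie farthest to the left in MCF10AT1.

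Since the 41 genes moved together between replicates, each was also expressed against the mean of the other 40 in the same library, as a description without a test. On this log2 scale PCNA stood at 2.57, 2.32 and 2.11 in the MCF10AT1 negative CRISPR replicates and at 0.99, 1.00 and 0.74 in the METTL3 knockdown replicates. The difference of -1.42 was larger than the spread within either group (SD 0.23 and 0.15). GINS1 changed by -1.18 (SD 0.32 and 0.49) and PRIM1 by -1.04 (SD 0.13 and 0.51), both without overlap. RPA2 (0.57), POLD1 (0.46) and MCM5 (0.37) were the genes whose groups lay apart in the other direction. POLA2, a subunit of polymerase alpha, had the largest positive change, 1.13, with groups that overlapped (SD 0.88 and 0.63). In MCF10A, PCNA changed by -0.01 and PRIM1 by 0.14 on this scale, and GINS1 rose by 0.66 without overlap. In MCF10CA1h PCNA changed by 0.16, PRIM1 by -0.13 and GINS1 by -0.00, with overlapping groups.

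**Figure D4:**
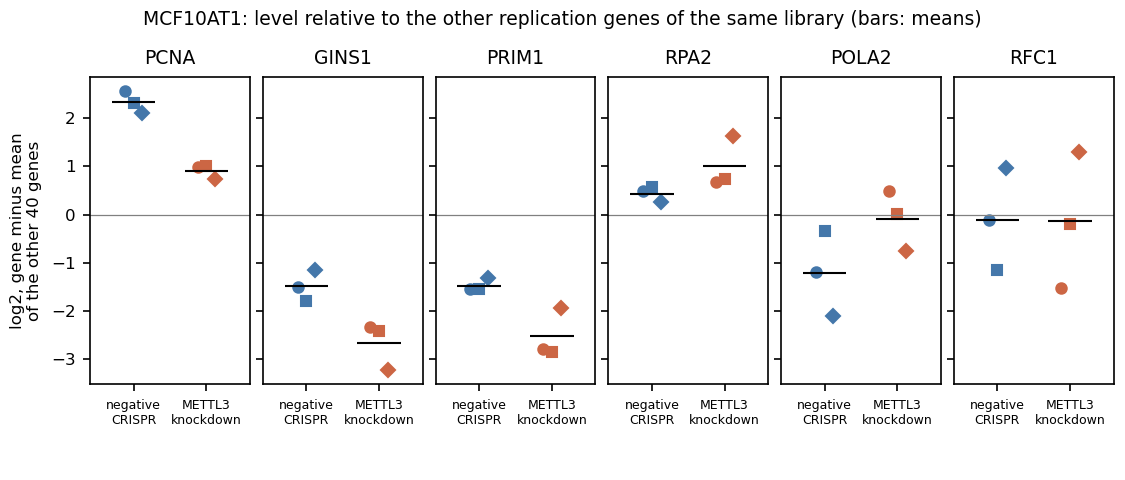
The log2 level of 6 genes minus the mean of the other 40 replication genes is shown for each MCF10AT1 library (circle, square and diamond for replicates a, b and c, blue for negative CRISPR, orange for METTL3 knockdown, bars for means). PCNA, GINS1 and PRIM1 lie lower in all 3 METTL3 knockdown libraries, RPA2 lies slightly higher, and POLA2 and RFC1 overlap.

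In MCF10CA1h replication genes fell in the METTL3 knockdown line. Of the 41 genes, 12 (29.3%) were called lower and none higher, compared with 12.8% of 15127 genes called in either direction, 4.85% lower and 7.91% higher. At an unadjusted p under 0.05 there were 26, beside 28.0% of all genes. All 41 estimates were below 0, with a median of -0.34 beside -0.02 for all genes, and 27 genes had groups that did not overlap (32.7% of all genes tested). Epithelial marker sums moved in the same comparison, from between 332701 and 359659 in the controls to between 432121 and 462577, and mesenchymal sums from between 28313 and 33422 to between 41558 and 52529. The single markers were mixed. Of 12 epithelial markers tested, 3 were called higher and 1 lower, with 7 estimates above 0 and 5 below. Of 12 mesenchymal markers tested, 2 were called higher and 1 lower, with 8 estimates above 0 and 4 below. The part of these markers in the result was not tested. The sizes for the replication genes were modest, from -0.04 to -0.76 on the log2 scale. The 41 genes had a median SD on the log2 scale of 0.10 between the control replicates, compared with 0.19 for all genes with a mean of at least 10. The 2 sets were not matched for level, so the lower SD is not shown to be particular to replication genes. The count was 6 without negative CRISPR replicate a, 7 without c, and 6 without METTL3 knockdown replicate b or c. It was 3 without the intensity trend (7.42% of all genes called), 1 without the filter on low values (1.69%) and 0 in the joint fit of 18 libraries (1.56%), whose spread includes the wider MCF10A and MCF10AT1 replicates.

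The helicase made up most of the calls, with all 7 of its genes lower. MCM10 had 824, 1090 and 957 in the negative CRISPR libraries and 648, 505 and 540.4 in the METTL3 knockdown libraries, or 59.1% (log2FC -0.76, SE 0.14, adjusted p = 0.00727). The groups did not overlap, and MCM10 was the gene of the 41 with the largest change. MCM5 (chr22:35400134-35425431) had 3822, 3834 and 3726 against 2989, 2738 and 2173 (-0.54, SE 0.12, adjusted p = 0.0154). MCM2 had 4050, 4001 and 3734 against 2957, 2827 and 2471 (-0.52, SE 0.10, adjusted p = 0.00742). All METTL3 knockdown libraries were below all controls for both. MCM3 (chr6:52264014-52284881) had 6373, 6408 and 6777 against 5023, 4368 and 4407 (-0.51, SE 0.09, adjusted p = 0.00563). MCM6 (chr2:135839626-135876443), whose promoter is printed above, had 3162, 3014 and 2812 against 2163, 2015 and 2290 (-0.47, SE 0.10, adjusted p = 0.01). MCM4 and MCM7 fell by 0.46 and 0.37 on the log2 scale, to complete the ring. The 6 ring subunits thus lay between 68.8% (MCM5) and 77.3% (MCM7) of the controls. This band was not particular to the ring. Genes of other roles lay in it too, among them UNG (69.4%), RFC3 (70.6%), POLD3 (72.7%) and E2F1 (74.6%).

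Of the other roles, 5 genes were called. UNG (chr12:109097597-109126725) had 2657, 2852 and 2657 in the negative CRISPR libraries and 2000, 1932 and 1741 in the METTL3 knockdown libraries (-0.53, SE 0.10, adjusted p = 0.00587). RRM1 (chr11:4094707-4138932), the large subunit of ribonucleotide reductase, had 3779, 4476 and 3739 against 3287, 2597 and 2700 (-0.49, SE 0.12, adjusted p = 0.0232). RPA2 (chr1:27891524-27914746) had 1778, 1849 and 1953 against 1498, 1284 and 1208 (-0.49, SE 0.11, adjusted p = 0.0162). None of these groups overlapped. With 1 library left out, RRM1 was not called in 4 of 6 fits and RPA2 in 3 of 6. E2F1 had 1364, 1200 and 1362 against 994, 972 and 957, at 74.6% (-0.42, adjusted p = 0.0231), and RFC5 fell to 76.4% (-0.39, adjusted p = 0.0328).

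Several genes stayed close to the control level in MCF10CA1h, the nearest being POLA2, TK1, GINS4 (-0.06), POLE (-0.10) and ORC6 (-0.11). TK1 had 2666, 2533 and 2664 against 2503, 2591 and 2502 (-0.05, SE 0.09, adjusted p = 0.75) and POLA2 had 919, 970.4 and 977 against 995, 998 and 801 (-0.04, SE 0.12, adjusted p = 0.842). RRM2, which forms an enzyme with RRM1, gave -0.14 (adjusted p = 0.499) where RRM1 gave -0.49. PCNA gave -0.17 (adjusted p = 0.373). None of the 4 licensing factors (from -0.11 for ORC6 to -0.37 for CDT1), the 5 genes of CDC45 and GINS, the 8 polymerase genes or FEN1 and LIG1 passed the threshold. FEN1 (adjusted p = 0.0523), GINS2 (0.0549) and POLD2 (0.0579) came closest, each with groups that did not overlap. A gene that was not called had not always changed less. RFC3 (-0.50, SE 0.16), PRIM1 (-0.46, SE 0.18) and POLD3 (-0.46, SE 0.17) fell about as far as MCM4 (-0.46, SE 0.10), with larger SEs. Expressed against the other 40 genes, MCM10 (-0.44), MCM5 (-0.22), UNG (-0.21), MCM2 (-0.19), MCM3 (-0.18) and RPA2 (-0.17) were lower without overlap, and POLA2 (0.29), TK1 (0.28), POLE (0.23), ORC6 (0.22) and GINS3 (0.16) were higher without overlap.

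**Figure D5:**
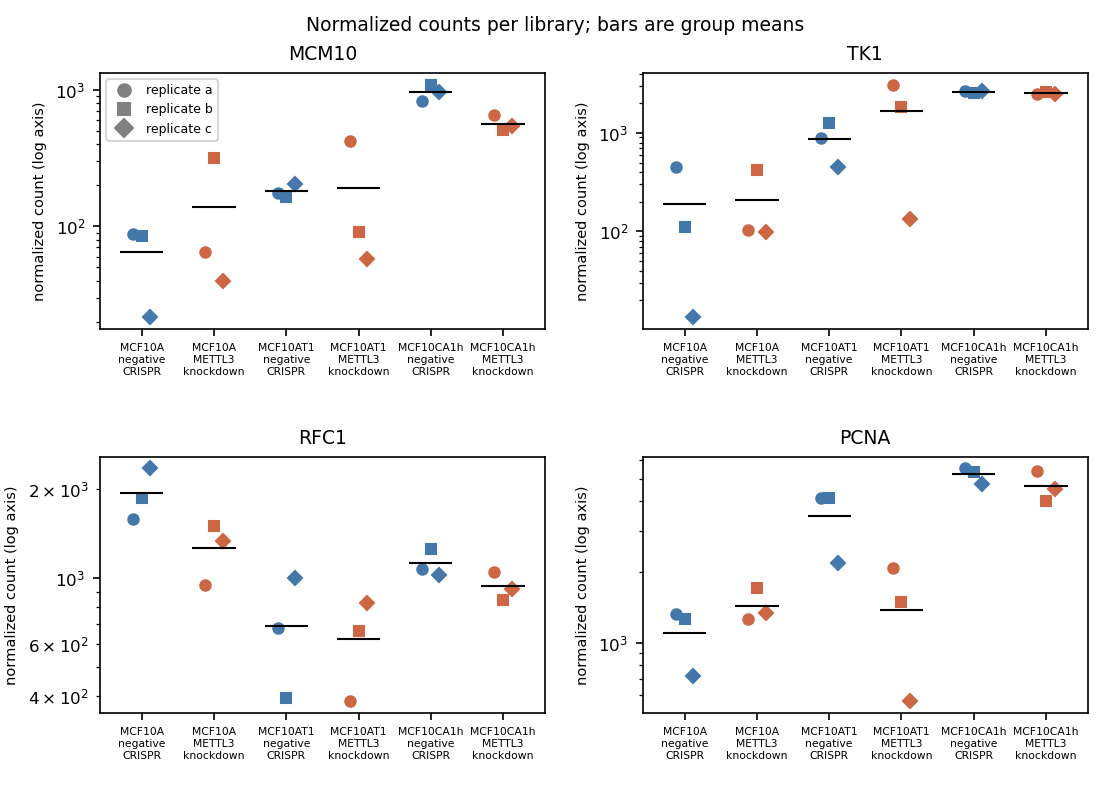
Normalized counts of MCM10, TK1, RFC1 and PCNA are plotted on a log axis for each library, by line and CRISPR line, with shapes for replicate letters, blue for negative CRISPR, orange for METTL3 knockdown and bars for the mean of 3 libraries. MCM10 and TK1 climb from MCF10A to MCF10CA1h, RFC1 is highest in MCF10A, and PCNA is lower in the MCF10AT1 METTL3 knockdown libraries (2081, 1496 and 562) than in their controls.

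Whether the effect of METTL3 knockdown differed between lines was tested by interaction contrasts in 1 limma fit of the 18 libraries, which use the same libraries as the comparisons above. Between MCF10AT1 and MCF10A, 3 of the 41 genes differed, all with the lower value in MCF10AT1, beside 21.6% of 15897 genes and 10.5% in that direction. They were GINS1 (difference of log2 fold changes -2.31, SE 0.79, adjusted p = 0.0461), PCNA (-1.89, SE 0.53, adjusted p = 0.0173) and PRIM1 (-1.67, SE 0.57, adjusted p = 0.045). The count was 0 without MCF10A negative CRISPR replicate c, and 1 without MCF10A negative CRISPR b, MCF10A METTL3 knockdown b or c, MCF10AT1 negative CRISPR a or b, MCF10AT1 METTL3 knockdown b or c, or any MCF10CA1h library. Between MCF10CA1h and MCF10A no gene of the 41 was called and 5 reached an unadjusted p under 0.05, beside 5.34% of all genes called and 17.5% at an unadjusted p under 0.05. RPA1 (-0.61, SE 0.21, adjusted p = 0.105), RFC3, a small subunit of the clamp loader (-1.22, SE 0.52, adjusted p = 0.228), and MCM2 (-0.99, SE 0.44, adjusted p = 0.256) had the smallest p. Between MCF10CA1h and MCF10AT1 none was called and 3 reached an unadjusted p under 0.05, beside 18.2% of all genes called and 30.2% at an unadjusted p under 0.05. RPA2 gave -0.97 (SE 0.35, adjusted p = 0.0689), RPA1 -0.51 (SE 0.21, adjusted p = 0.101) and PCNA 1.30 (SE 0.53, adjusted p = 0.108). With the replicate letter as a block PCNA (adjusted p = 0.00786) and RPA2 (adjusted p = 0.028) were called there, beside 24.8% of all genes. The fall of the helicase genes in MCF10CA1h was therefore not shown to differ from the change in the other lines.

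Other genes of the pathway were taken from lists chosen for their function, with earlier results of these data known. Of 40 related replication genes, none was called in MCF10A (2 at an unadjusted p under 0.05), 3 in MCF10AT1 (7.5%, below the 13.0% of all genes) and 7 in MCF10CA1h (17.5%, beside 12.8% of all genes). In MCF10AT1, POLD4, the smallest subunit of polymerase delta, rose (2.03, SE 0.36, adjusted p = 0.00748), and ORC2, an origin recognition subunit (-1.75, SE 0.37, adjusted p = 0.0173), and DNA2, a nuclease and helicase that trims Okazaki fragment flaps (-1.71, SE 0.41, adjusted p = 0.0296), fell. In MCF10CA1h, SAMHD1, which degrades deoxynucleotides, rose from a mean of 362 to 1979 normalized counts (2.40, SE 0.19, adjusted p = 7.0e-05). The other 6 called genes fell, among them CDC7, the kinase that fires origins (-0.85, SE 0.17, adjusted p = 0.00947), and ATAD5, which unloads PCNA (-0.82, SE 0.21, adjusted p = 0.0279). The related genes had a median of -0.25 in MCF10CA1h.

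Of 24 G1/S regulators, 5 were called in MCF10CA1h, 2 higher and 3 lower (20.8%, beside 12.8% of all genes), and none in MCF10A or MCF10AT1 (1 and 3 at an unadjusted p under 0.05). CDKN1A, which encodes the CDK inhibitor p21, rose from a mean of 6588 to 12062 (0.88, SE 0.10, adjusted p = 4.8e-04). E2F2, an activating E2F (-1.08, SE 0.16, adjusted p = 0.00258), SKP2, which targets CDK inhibitors for degradation (-0.78, SE 0.14, adjusted p = 0.00632), and MYC (-0.49, SE 0.09, adjusted p = 0.00658) fell. Of the 31 mitosis genes, 3 were called in MCF10CA1h, all lower (9.68%, beside 4.85% of all genes called lower and 12.8% in either direction). They were MKI67 (-0.63, adjusted p = 0.00256), KIF11 (-0.63, adjusted p = 0.00702) and BIRC5 (-0.47, adjusted p = 0.00975). Estimates in MCF10CA1h were below 0 for 29 of the 31 genes, and groups did not overlap for 17 (54.8%, beside 32.7% of all genes). The mitosis list had a median of -0.27 there, beside -0.34 for the replication genes, and 1.34 in MCF10A and 0.16 in MCF10AT1 with no gene called and none at an unadjusted p under 0.05. Between the negative CRISPR lines of MCF10A and MCF10CA1h all 31 mitosis genes were higher in MCF10CA1h, with a median of 4.17 on the log2 scale beside 2.36 for the replication genes.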

How the data were processed

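RNA of the CRISPR lines was sequenced in 18 libraries, 3 in each of 6 groups. Per the labels and the methods, the authors quantified transcripts with kallisto 0.46.1 against an hg38 transcriptome, summed them to genes (tximport) and divided the resulting counts by DESeq2 1.26.0 factors in R 4.1.1. The deposited signal is this normalized count per gene, which is neither a read count nor per length. The annotation release is not given in the sources used here, and the labels call the RNA polyA while the protocol describes rRNA-depleted total RNA. The table held 35933 genes with values and 24646 rows without, and size factors recomputed from it lay between 1.013 and 1.018. Among values under 20, 26.2% to 46.4% per library were whole multiples (tolerance 0.05) of the most common low value, so reads could not be recovered, the depth is unknown and no count model was used.

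Tests used limma 3.58.1 in R 4.3.3 (moderated by eBayes, intensity trend included) on log2(normalized count + 1), over genes with a mean of at least 10 in the libraries of the fit, with Benjamini-Hochberg adjustment over all genes tested and a threshold of 0.05. Fold changes are on this scale, which understates the change of low genes. METTL3 knockdown was tested per line (6 libraries), the lines against each other in the 9 negative CRISPR libraries, and the difference of knockdown effects in all 18. All 41 genes passed the filter in every fit. The code was tested on simulated data with known changes. Other settings were pseudocounts of 0.5 and 5, no filter, a mean of at least 50, no trend, equal sums per library, a replicate block, a joint fit and each library left out.

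Deviations from the group means were correlated between control and METTL3 knockdown libraries over 15897 genes. Libraries sharing a letter gave r of 0.221, 0.2 and 0.116 for MCF10A. The MCF10AT1 values were 0.11, 0.289 and 0.477, and those of MCF10CA1h were -0.0112, 0.0173 and 0.046. Different letters gave at most 0.00868 for MCF10A. For MCF10AT1, control b with METTL3 knockdown a gave 0.251, above the 0.11 of a with a. Other MCF10AT1 pairs of different letters lay between -0.413 and 0.0143. The main fits did not use the letters, which entered only as the replicate block among the other settings. The 41 genes and all lists were chosen with earlier results of these data known. Any of the 41 could be named, with full statistics for genes called, for the 8 with the largest change where more were called, or for the 3 with the smallest p where fewer than 3 were called, and, of the other lists, for the 4 called genes with the largest change. Genes given beyond this rule were chosen after their values were seen. The values of 1 gene that the rule names are not reported here. Positions come from GENCODE and promoter sequences from RefSeq (hg38). Python 3.11.15, pandas 2.3.3, NumPy 2.4.6, SciPy 1.17.1 and matplotlib 3.10.9 were used.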

Additional observations from a re-analysis of the deposited data

Results flagged for a closer look

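These genes passed the interaction test in limma for a METTL3 knockdown effect that differed between lines. Of all 15897 genes, 21.6% passed between MCF10AT1 and MCF10A, 5.34% between MCF10CA1h and MCF10A, and 18.2% between MCF10CA1h and MCF10AT1. Between MCF10AT1 and MCF10A, 7.32% of the 41 replication genes and 12.5% of the 40 related genes passed, below the 21.6% of all genes. Of the 41 replication genes, the MCF10AT1 effect minus the MCF10A effect was -2.31 for GINS1 (adjusted p = 0.0461), -1.89 for PCNA (adjusted p = 0.0173) and -1.67 for PRIM1 (adjusted p = 0.045) on the log2 scale. Of the related replication genes, that difference was 2.87 for POLD4 (adjusted p = 1.5e-04), -2.09 for DNA2 (adjusted p = 0.00648) and -2.0 for ORC2 (adjusted p = 3.5e-04). With 1 library of MCF10A or MCF10AT1 left out, GINS1 lost its call in 9 of 12 fits, PRIM1 in 8 and PCNA in 1. These tallies leave out the fits without an MCF10CA1h library, in each of which only 1 of the 41 genes was called. The ORC2 effect in MCF10CA1h minus that in MCF10AT1 was 1.85 (adjusted p = 8.4e-04). The SAMHD1 effect was larger in MCF10CA1h than in MCF10A by 2.95 (adjusted p = 7.0e-04) and than in MCF10AT1 by 3.66 (adjusted p = 1.3e-05). The CDKN1A effect in MCF10CA1h exceeded that in MCF10A by 1.18 (adjusted p = 0.0114) and that in MCF10AT1 by 1.36 (adjusted p = 0.00114). Each group was 1 clone, and what sets these differences was not tested.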

How the results depend on the processing

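The count of replication genes called in MCF10CA1h after METTL3 knockdown, 12, became 1 with no filter on low values (UNG, where 1.69% of all genes were called), 3 with no intensity trend and 0 in the joint fit of 18 libraries. Among the negative CRISPR lines, no filter gave 6 in place of 16 between MCF10A and MCF10AT1 and 11 in place of 18 between MCF10AT1 and MCF10CA1h. For the difference of effects between MCF10AT1 and MCF10A, no filter and no trend each gave 1 in place of 3. With the replicate block the count was 1 in MCF10A, 2 in MCF10AT1 (also 2 in the joint fit) and 2 for the difference between MCF10CA1h and MCF10AT1, where 0 were called without it, and 7.60% and 24.5% of all genes were called in MCF10A and MCF10AT1. In MCF10CA1h, where the letters did not pair the libraries, the block gave 11.

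With 1 library left out, the METTL3 knockdown counts ranged from 0 to 0 in MCF10A, 0 to 0 in MCF10AT1 and 6 to 17 in MCF10CA1h, and the medians from -0.02 to 0.65, -0.32 to 0.34 and -0.39 to -0.30 on the log2 scale. The counts between lines ranged from 6 to 30, 37 to 41 and 9 to 24 (MCF10AT1 against MCF10A, MCF10CA1h against MCF10A, and MCF10CA1h against MCF10AT1). Those of the differences of effects ranged from 0 to 4 (MCF10AT1 and MCF10A), 0 to 1 (MCF10CA1h and MCF10A) and 0 to 1 (MCF10CA1h and MCF10AT1). No result changed direction while called. For single genes, 591 of the values under other settings kept their side of the threshold, 118 fell short of it and 12 newly passed it. An alternative chosen after seeing the data left out MCF10A negative CRISPR replicate c and METTL3 knockdown replicate b, the lowest and the highest of their groups, which favours lower values by construction. Groups of 2 then did not overlap for 21 genes, 19 lower and 2 higher with METTL3 knockdown (51.2%, beside 42.1% of 15416 genes). The libraries left out were extreme for the 41 genes themselves and not for all genes, so these shares cannot be weighed against each other.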
